A study of Mus musculus with 4 samples.

Results

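The C-type lectin receptor genes described here were 10 genes of mouse macrophages, namely Mrc1, Clec10a, Mgl2, Clec7a, Clec4a2, Clec4a3, Clec4n, Clec4d, Clec4e and Cd209a. They were chosen by name, and their probes were those that carry these gene names in the array annotation. This gave 11 of the 55681 non-control probes, and 10 of the 23197 genes with a symbol and a signal on all 4 arrays. Cd209a had 2 probes and every other gene had 1. Of the 10 genes, 9 were called well above background by the scanner software on at least 1 array, and Cd209a on none.

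RNA was measured in bone marrow-derived macrophages (BMDMs) from C57BL/6J mice aged 10 weeks, with 1 Agilent 1-colour array for each of 4 conditions. All cells were differentiated for 6 days in medium with L929 cell supernatant, a source of M-CSF, and then stimulated for 2 days. Wild-type M2 BMDMs received IL-4 at 50 ng per ml and wild-type M1 BMDMs received IFN-γ at 20 ng per ml with LPS at 100 ng per ml. Lamtor1-deficient BMDMs, labelled p18 (2400001E08Rik) -/-, received IL-4 as the M2 cells did, and so did wild-type BMDMs given 250 nM Torin1, an inhibitor of the kinase mTOR. Lamtor1 is a subunit of the Ragulator, which holds mTORC1 regulators on the lysosome. In the study's methods the gene is deleted by LysM-Cre, which is active in myeloid cells, and the control littermates carry Lamtor1 flox/flox without Cre, while the labels call the controls wild type. How many mice each culture came from is not given in the sources used here. No condition had a second array, so nothing could be tested or checked against replicates, and precision is limited by how few arrays there were.

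C-type lectin receptors are membrane proteins that bind sugars or other ligands of microbes and of the body's own cells. Mrc1, Clec10a and Mgl2 take up glycoproteins and are well-known marks of macrophages treated with IL-4. Clec7a, Clec4n, Clec4d and Clec4e sense fungal and mycobacterial cell walls and signal through the kinase Syk and the adaptor Card9, while Clec4a2 carries an inhibitory motif.

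The values below are processed signals divided by the 75th percentile of their array, called normalized signals, and log2 ratios of them. The spread between spots of repeated probes on an array gave a technical SD of a log2 ratio of 0.088 for Lamtor1-deficient over M2, 0.093 for Torin1-treated over M2 and 0.10 for M1 over M2, which leaves out any difference between cultures. A gene was counted as higher or lower where it differed 2-fold or more. Levels of different probes were put together only to choose a gene's brightest probe and in the summed signals of marker lists, where bright probes weigh most. Elsewhere a probe's level was not set against that of another probe. Lamtor1 itself, the targeted gene, had normalized signals of 66.3 in M2, 1.55 in Lamtor1-deficient, 74.96 in Torin1-treated and 51.2 in M1 BMDMs, and it was 42.7-fold lower in the Lamtor1-deficient than in the M2 sample. Of 12 M2 genes, 10 were lower in M1 than in M2, and the 11 M1 genes above background were all higher, where 27.8% of all genes were lower and 28.3% higher. Of 10 macrophage markers, 9 were well above background on every array, and Cd163 was on none. Some of these markers were themselves lower than in M2, with 3 of 9 lower in the Lamtor1-deficient and 3 in the Torin1-treated sample, beside 10.5% and 15.2% of all genes. Adgre1 had log2 ratios of -2.57 and -2.81 and Fcgr1 -4.96 and -4.61 there, and Cd14 had -1.86 with Lamtor1 deficiency. The part of this in the lectin values was not tested.

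Sequences upstream of the start site are shown for the genes on which the contrast turns, the M2 lectins Mrc1 and Mgl2 against Clec4d and Clec4e, and for Clec7a, whose window was the only one with a STAT6 motif among the 8 members searched. They are 250 bases that end just before the first annotated start site, 5′ to 3′ on the gene's own strand, from RefSeq on GRCm38.p6. Capitals mark the motifs found.
Mrc1 (chr2:14229164-14229413, plus strand): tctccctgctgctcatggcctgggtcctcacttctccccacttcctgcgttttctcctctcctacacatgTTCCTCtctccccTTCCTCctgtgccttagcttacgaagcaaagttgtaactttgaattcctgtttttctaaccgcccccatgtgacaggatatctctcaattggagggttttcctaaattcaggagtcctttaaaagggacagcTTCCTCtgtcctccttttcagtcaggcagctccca
Mgl2 (chr11:70130107-70130356, plus strand): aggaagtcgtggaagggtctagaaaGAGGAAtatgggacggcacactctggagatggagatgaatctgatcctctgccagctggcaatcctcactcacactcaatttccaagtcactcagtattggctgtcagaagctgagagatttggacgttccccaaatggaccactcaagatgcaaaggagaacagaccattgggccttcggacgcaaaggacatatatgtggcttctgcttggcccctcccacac
Clec7a (chr6:129472780-129473029, minus strand): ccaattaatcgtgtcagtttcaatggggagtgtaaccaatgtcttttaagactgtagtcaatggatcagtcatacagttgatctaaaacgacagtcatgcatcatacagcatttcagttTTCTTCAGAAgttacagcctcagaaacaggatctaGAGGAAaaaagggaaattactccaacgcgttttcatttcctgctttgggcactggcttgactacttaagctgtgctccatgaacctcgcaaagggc
Clec4d (chr6:123261857-123262106, plus strand): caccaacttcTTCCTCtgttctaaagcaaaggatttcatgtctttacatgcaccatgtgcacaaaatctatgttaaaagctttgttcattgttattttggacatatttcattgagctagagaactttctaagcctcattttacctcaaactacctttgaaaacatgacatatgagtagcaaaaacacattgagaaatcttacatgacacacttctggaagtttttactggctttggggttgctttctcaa
Clec4e (chr6:123289872-123290121, minus strand): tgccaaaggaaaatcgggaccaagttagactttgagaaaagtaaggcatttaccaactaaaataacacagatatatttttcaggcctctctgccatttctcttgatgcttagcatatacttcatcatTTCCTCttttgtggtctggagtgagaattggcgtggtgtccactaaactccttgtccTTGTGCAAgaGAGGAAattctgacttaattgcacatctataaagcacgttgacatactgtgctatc

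RefSeq promoter entries were matched for 8 members, with 10 start sites, and not for Clec10a and Clec4n. The motifs searched on both strands were TTC and GAA with any 4 bases between them for STAT6, the factor activated by IL-4, GAGGAA for the macrophage factor PU.1, TGANTCA for AP-1, TTNNGCAA for C/EBP and the κB consensus. The PU.1 motif was in the windows of Mrc1 with 3 matches, Clec4e with 2, and Mgl2, Clec7a, Clec4d and the second start site of Clec4a3 with 1 each, and it is also in 23.3% of all 32851 promoter entries. Clec4e had a C/EBP match, TTGTGCAA, from 66 to 59 bases before the start, a motif in 9.56% of entries. Clec7a had the STAT6 match, TTCTTCAGAA, from 131 to 122 bases before its first start site, a motif in 5.85% of entries. None of the members' windows held the AP-1 motif, which is in 6.75% of entries, or the κB consensus, in 7.25%. A match is a description of these letters and not a binding site.

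Most of the 9 members above background had lower signals with Lamtor1 deficiency. Clec7a and Clec4e were higher than in M2, while Mrc1, Clec10a, Mgl2, Clec4a2, Clec4a3 and Clec4n were lower and Clec4d differed by less than 2-fold. Of the 9 members, 8 thus differed 2-fold or more, 2 higher and 6 lower, where 20.9% of all 15319 genes well above background on at least 1 of the arrays did, 10.4% higher and 10.5% lower. Clec7a left the count, so that 1 was higher and 6 lower, under quantile normalization and with the percentile taken over probes well above background, and with normexp Clec4a2 did, so that 5 were lower. The median log2 ratio of the 9 was -1.41 and that of all these genes 0.08. In bulk RNA, fewer cells of a type and less RNA per cell cannot be told apart.

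After Torin1, 7 of the 9 differed 2-fold or more, where 30.2% of 15690 genes did. Clec4n, Clec4d and Clec4e were the 3 higher ones, against 15% of all genes, and Mrc1, Clec10a, Clec4a2 and Clec4a3 the 4 lower ones, against 15.2%. Mgl2 and Clec7a were within 2-fold. The lower ones were 3 with normexp, without Clec4a2, and 5 with quantile normalization, where Mgl2 was at -1.03. The median log2 ratio of the 9 was -0.45, beside 0.04 for all genes. In M1 over M2, 8 of the 9 differed, 4 higher and 4 lower, where 56.1% of 15805 genes did, 28.3% higher and 27.8% lower. The M1 split depended on the scaling, since a shift to the median gave 3 members higher and 5 lower, where 15.1% and 44.3% of genes were, and for Torin1 it again gave 3 members higher and 4 lower but 10.8% and 20.1% of genes. These comparisons share the M2 array, so a deviation of that array would move all of them.

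**Figure D1:**
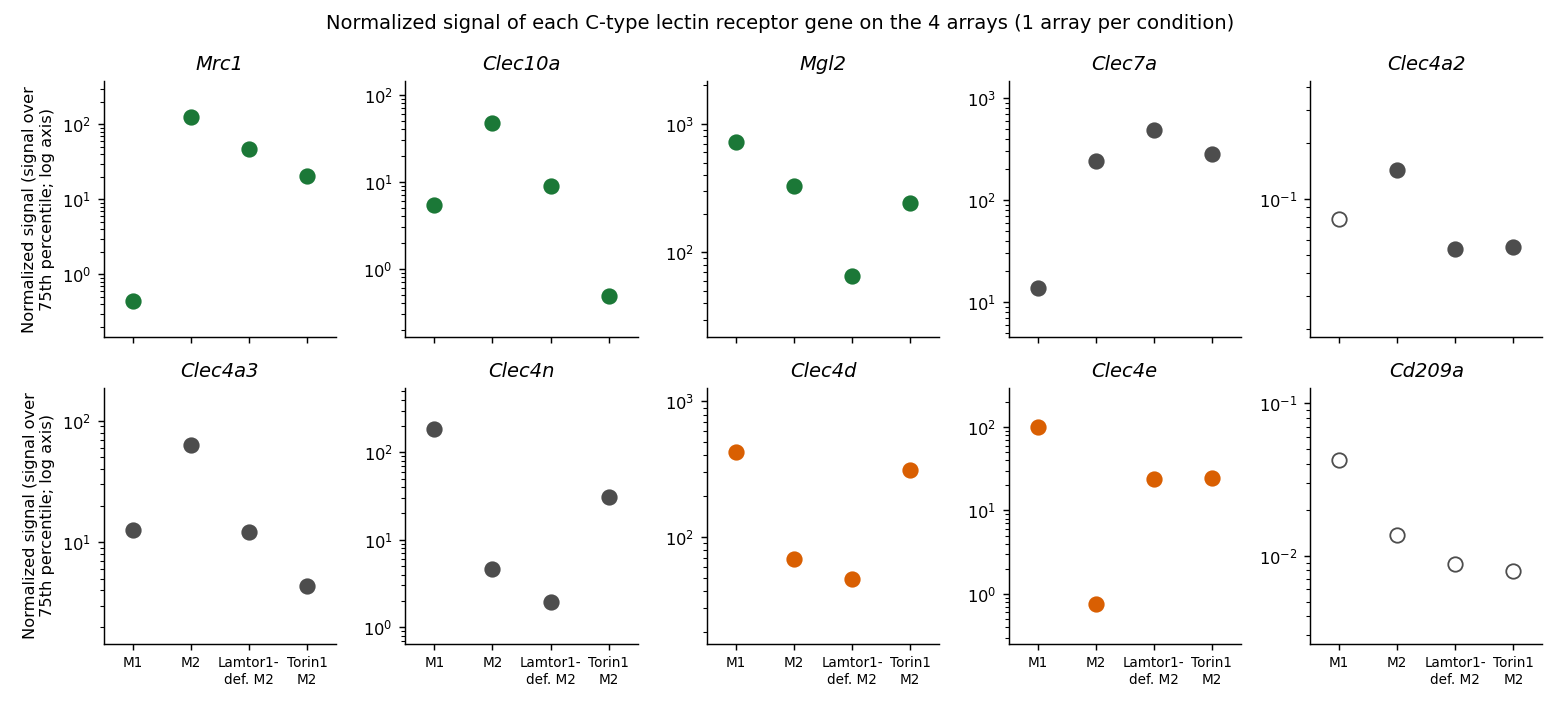
Each panel plots the normalized signal of 1 gene, on a log axis that differs between panels, on the M1, M2, Lamtor1-deficient M2 and Torin1-treated M2 arrays, with 1 point per array and no error bar as there were no replicates. Green marks Mrc1, Clec10a and Mgl2, orange marks Clec4d and Clec4e, and open circles mark probes not well above background. Clec4e was lowest in M2 at 0.759, where Mrc1 was highest at 126.

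Mrc1, the mannose receptor CD206, was measured by a probe at chr2:14253273-14253332 (mm9, plus strand). Its normalized signal was 126 in M2, 47.2 in Lamtor1-deficient, 20.2 in Torin1-treated and 0.435 in M1 BMDMs. The M2 sample was thus the highest and the M1 sample the lowest, with both treated samples between them and the Lamtor1-deficient one above the Torin1-treated one. The log2 ratios to M2 were -1.42 for Lamtor1-deficient, -2.64 for Torin1-treated and -8.18 for M1 cells, that is 2.68-, 6.25- and 290-fold lower. In M1 over M2, only 13 of 15805 genes had a ratio as low as that of Mrc1 or lower.

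Clec10a encodes the macrophage galactose-type lectin MGL1, and its probe lies at chr11:69984254-69984313 (mm9, plus strand). The normalized signals were 48.0 in M2, 8.93 in Lamtor1-deficient, 0.491 in Torin1-treated and 5.35 in M1 BMDMs. Here the Torin1-treated sample was the lowest of the 4, below M1. Clec10a was 5.37-fold lower than in M2 in the Lamtor1-deficient sample, 97.7-fold lower in the Torin1-treated sample and 8.96-fold lower in M1. Of 15690 genes, 39 had a ratio to M2 after Torin1 as low as or lower than the -6.61 of Clec10a.

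Mgl2 encodes a close relative of Clec10a that binds N-acetylgalactosamine, and its probe lies in the neighbourhood of Clec10a at chr11:69950985-69951044 (mm9, plus strand). Its normalized signals were 329 in M2, 65.5 in Lamtor1-deficient, 240 in Torin1-treated and 719 in M1 BMDMs. Among the 3 M2 lectins it was the one whose highest sample was M1 and whose lowest sample was Lamtor1-deficient. It was 5.02-fold lower than in M2 with Lamtor1 deficiency, 1.37-fold lower with Torin1 and 2.18-fold higher in M1. The difference in M1 depended on the scaling, since the unscaled processed signals were 206074 in M1 and 195742 in M2 and the log2 ratio of 1.13 became 0.31 when arrays were shifted to their median. Clec10a and Mgl2 are similar in sequence, and whether either probe also captures the other's RNA was not tested.

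Clec7a, the β-glucan receptor Dectin-1, has its probe at chr6:129411739-129411798 (mm9, minus strand). The normalized signals were 238 in M2, 487 in Lamtor1-deficient, 281 in Torin1-treated and 13.6 in M1 BMDMs. All 3 samples with IL-4 were far above the M1 sample, and the Lamtor1-deficient sample was the highest. The log2 ratios to M2 were 1.03, 0.24 and -4.13 in the same order. The first lay at the 2-fold threshold and was 0.87 under quantile normalization, while the second turned to -0.25 there.

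Clec4a2 and Clec4a3 lie in the Clec4 gene cluster of chromosome 6 and encode receptors of the DCIR family. The probe of Clec4a3 is at chr6:122919637-122919696 (mm9, plus strand), and its normalized signals were 62.8 in M2, 12.2 in Lamtor1-deficient, 4.36 in Torin1-treated and 12.6 in M1 BMDMs. The M2 sample was the highest and the other 3 were all lower, by 5.17-, 14.4- and 5.01-fold. The probe of Clec4a2, at chr6:123093890-123093949 (mm9, plus strand), was dim, with processed signals of 85.1 in M2, 28.9 in Lamtor1-deficient, 25.9 in Torin1-treated and 22.3 in M1 BMDMs, the last not well above background. Clec4a2 was 2.65-fold lower than in M2 with Lamtor1 deficiency and 2.60-fold lower with Torin1. With the normexp background correction its log2 ratios for the treated samples shrank from -1.41 and -1.38 to -0.43 and -0.36. In M1, where the probe was below background, Clec4a2 was at least 1.84-fold lower than in M2 on the main scale. Its direction there was not settled, as the measured log2 ratio was 0.28 under normexp. It was -1.70 under the median shift and -1.65 under quantile normalization.

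Clec4n encodes Dectin-2, a receptor for fungal mannans that signals through the Fc receptor γ chain, and its probe is at chr6:123196969-123197028 (mm9, plus strand). Its normalized signals were 4.64 in M2, 1.94 in Lamtor1-deficient, 31.2 in Torin1-treated and 184 in M1 BMDMs. The Lamtor1-deficient sample was below M2, and the Torin1-treated and M1 samples were above it. Clec4n was 2.39-fold lower than in M2 with Lamtor1 deficiency, 6.72-fold higher with Torin1 and 39.7-fold higher in M1.

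Clec4d encodes the receptor MCL, which pairs with Mincle in the recognition of mycobacterial glycolipids, and its probe is at chr6:123224788-123224847 (mm9, plus strand). The normalized signals were 68.7 in M2, 49.1 in Lamtor1-deficient, 310 in Torin1-treated and 422 in M1 BMDMs. The samples formed a lower pair, M2 and Lamtor1-deficient, and a higher pair, Torin1-treated and M1. The log2 ratios to M2 were -0.48 with Lamtor1 deficiency, 2.18 with Torin1 and 2.62 in M1.

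Clec4e encodes Mincle, the receptor for the mycobacterial cord factor, and its probe is at chr6:123232878-123232937 (mm9, minus strand). Its normalized signals were 0.759 in M2, 23.8 in Lamtor1-deficient, 24.4 in Torin1-treated and 99.0 in M1 BMDMs. M2 was by far the lowest sample and M1 the highest, and the Lamtor1-deficient and Torin1-treated samples were nearly equal. Clec4e was 31.4-fold higher than in M2 with Lamtor1 deficiency, 32.1-fold higher with Torin1 and 130-fold higher in M1. In the first comparison 101 of 15319 genes were as high or higher, with 35 of 15690 in the second and 75 of 15805 in the third. Neutrophils also carry Clec4d and Clec4e. The neutrophil markers, of which 8 of 10 had a signal on every array, summed to a normalized signal of 91.7 in M2, 6.50 in Lamtor1-deficient, 12.4 in Torin1-treated and 5.90 in M1 BMDMs. Of those above background, 7 were lower and 1 higher with Lamtor1 deficiency, 6 lower and 1 higher with Torin1, the latter Mmp8 at 2.47, and 6 lower and 0 higher in M1. The shares of all genes lower and higher were 10.5% and 10.4%, 15.2% and 15%, and 27.8% and 28.3% in these comparisons. The part of neutrophils in the Clec4d and Clec4e values was not tested.

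Cd209a, a mouse homologue of DC-SIGN that dendritic cells are known to carry, was not well above background on any array with either probe. The processed signals were 8.13, 4.75, 3.73 and 12.1 for the brighter probe, at chr8:3743481-3743540 (mm9, minus strand), and 4.85, 4.53, 3.57 and 4.22 for the other, in M2, Lamtor1-deficient, Torin1-treated and M1 BMDMs. No ratio is given for them. Dendritic cells are known to carry Clec10a too. Of the 10 dendritic cell markers, Dpp4, Btla and Xcr1 were well above background on no array, and the summed normalized signal of the list was 394 in M2, 294 in both the Lamtor1-deficient and the Torin1-treated sample and 236 in M1. Itgax and Siglech made up nearly all of this sum. Their normalized signals were 296 and 96.7 in M2, and 204 and 87.9 in the Lamtor1-deficient sample. They were 128 and 165 in the Torin1-treated and 2.17 and 232 in the M1 sample, where Itgax was below and Siglech above M2. Within that list 2 genes, Ccr7 at 2.54 and Cd24a at 1.54, were higher with Lamtor1 deficiency and Kmo at -3.16 was lower, of 6 above background, beside 10.4% and 10.5% of all genes. After Torin1 0 of 7 were higher and 2 lower, Kmo at -2.96 and Itgax at -1.21, beside 15% and 15.2%, and in M1 3 were higher and 3 lower, beside 28.3% and 27.8%. The part of these cells in the lectin values was not tested.

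**Figure D2:**
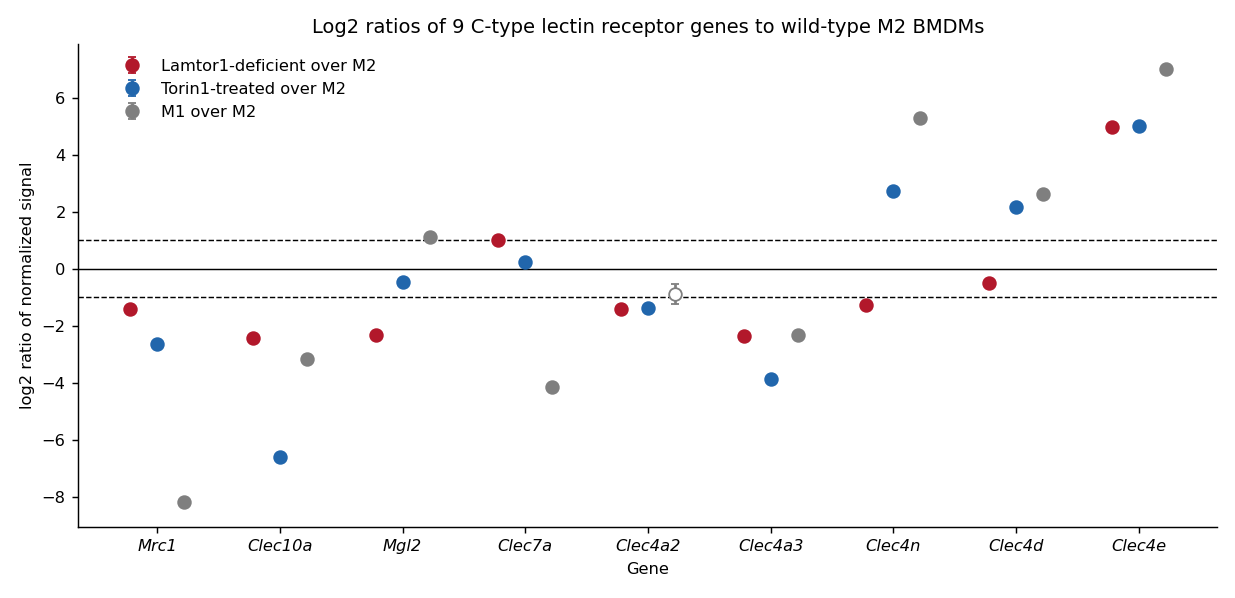
For each of 9 genes on the horizontal axis, the points give the log2 ratio of the normalized signal to wild-type M2 in the Lamtor1-deficient (red), Torin1-treated (blue) and M1 (grey) sample, with bars of 1 technical SD that are mostly smaller than the points, an open circle where 1 of the arrays was not well above background, and dashed lines at 2-fold. Clec4e was above 4 in all 3 comparisons, while Mrc1, Clec10a and Clec4a3 were below -1 in all 3.

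The M2 lectins as a set were set against Clec4d and Clec4e within each array, where a shift of the whole array cancels out. With Lamtor1 deficiency the mean log2 ratio was -2.06 for Mrc1, Clec10a and Mgl2 and 2.24 for Clec4d and Clec4e, a difference of -4.30. The positive mean of the pair came from Clec4e alone, as Clec4d was at -0.48. The nearest genes of the sets were Mrc1 and Clec4d, and Mrc1 minus Clec4d was -0.94.

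With Torin1 the means were -3.24 and 3.59, a difference of -6.83. Every M2 lectin was lower than either Clec4d or Clec4e, and for the nearest genes, Mgl2 minus Clec4d, the difference was -2.63. In M1 over M2 the means were -3.41 and 4.82, a difference of -8.23, although Mgl2 at 1.13 was itself on the positive side and Mgl2 minus Clec4d was -1.49. The technical SD of these differences was at most 0.091.

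**Figure D3:**
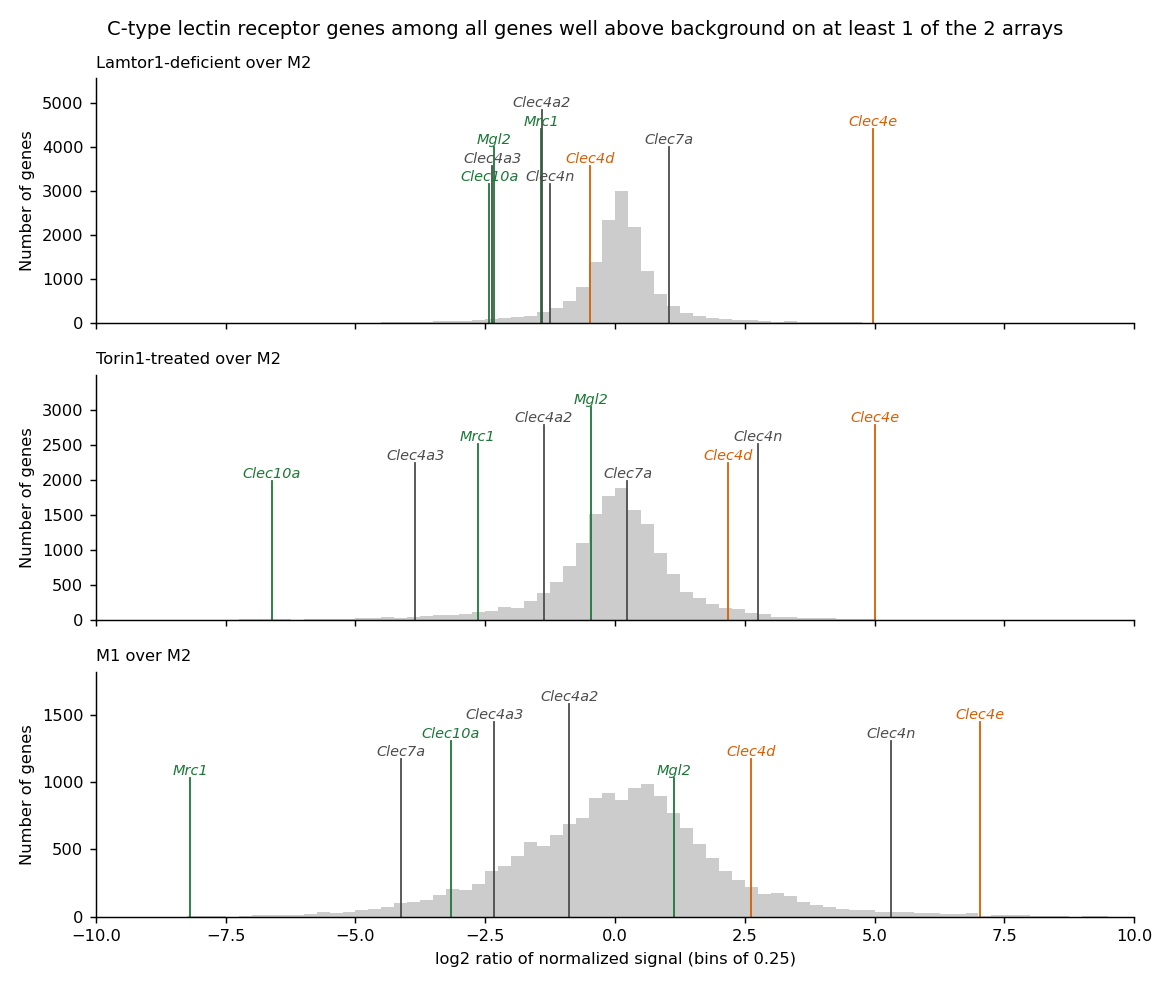
In each panel, grey bars count all genes well above background on at least 1 of the arrays by their log2 ratio to M2, and vertical lines mark 9 lectin receptor genes, with Mrc1, Clec10a and Mgl2 in green and Clec4d and Clec4e in orange. The height of a line carries no value. In the Lamtor1-deficient sample 6 of the 9 lay below -1 and Clec4e stood at 4.97.

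The Lamtor1-deficient and Torin1-treated samples were also compared with each other, without the M2 array. Of the 9 members, Mrc1, Clec10a and Clec4a3 were higher in the Lamtor1-deficient sample and Mgl2, Clec4n and Clec4d were lower, so 6 differed 2-fold or more, where 28.4% of 15665 genes did, 14.9% higher and 13.5% lower. With arrays shifted to their median these became 4 and 3 members and 23.1% and 9.7% of genes. The log2 ratios of Lamtor1-deficient over Torin1-treated were 1.22 for Mrc1, 4.19 for Clec10a and 1.48 for Clec4a3. They were -1.87 for Mgl2, -4.01 for Clec4n and -2.66 for Clec4d. The microbe sensors Clec4n and Clec4d and the lectin Mgl2 thus had their lower signal in the Lamtor1-deficient sample, and Clec10a had by far its lower one in the Torin1-treated sample. Clec4e and Clec4a2 both had a log2 ratio of -0.03, which is less than the technical SD of 0.093, and Clec7a had 0.79.

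Members of the family also lie next to each other. From Clec4a1 to Clec4e on chromosome 6, the RefSeq table (GRCm38.p6) has 11 genes, of which 9 are protein-coding and on the array and 5 are among the members. Their order is Clec4a1, Clec4a3, Clec4a4, Clec4b1, Clec4a2, Clec4b2, Clec4n, Clec4d and Clec4e. The first 6 were all lower than in M2 in both the Lamtor1-deficient and the Torin1-treated sample, where 10.5% and 15.2% of all genes were. With normexp the dim Clec4a2 was within 2-fold in both. The last 3 were all higher in the Torin1-treated and M1 samples, where 15% and 28.3% of all genes were. In the Lamtor1-deficient sample only Clec4e was higher, beside 10.4% of all genes.

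Of the neighbours that are not members, Clec4a1 had log2 ratios of -4.46 with Lamtor1 deficiency, -5.79 with Torin1 and -0.62 in M1. Clec4b1, which encodes the activating receptor DCAR, had -5.45, -4.11 and -1.58, and its dimmer probe had -5.94 with Lamtor1 deficiency. That dimmer probe was not well above background after Torin1 or in M1, where the brighter one was, so the probes disagree there. Clec4a4 had -3.04 with Lamtor1 deficiency and was not well above background after Torin1. Its 1.06 in M1 came with unscaled processed signals of 229 in both M1 and M2, so it depended on the scaling. Clec4b2 was well above background in M2 only, and was at least 2.83-fold lower with Lamtor1 deficiency and at least 3.16-fold lower with Torin1. The Clec4a and Clec4b genes are similar in sequence, so a probe of one could also capture RNA of another, which was not tested.

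**Figure D4:**
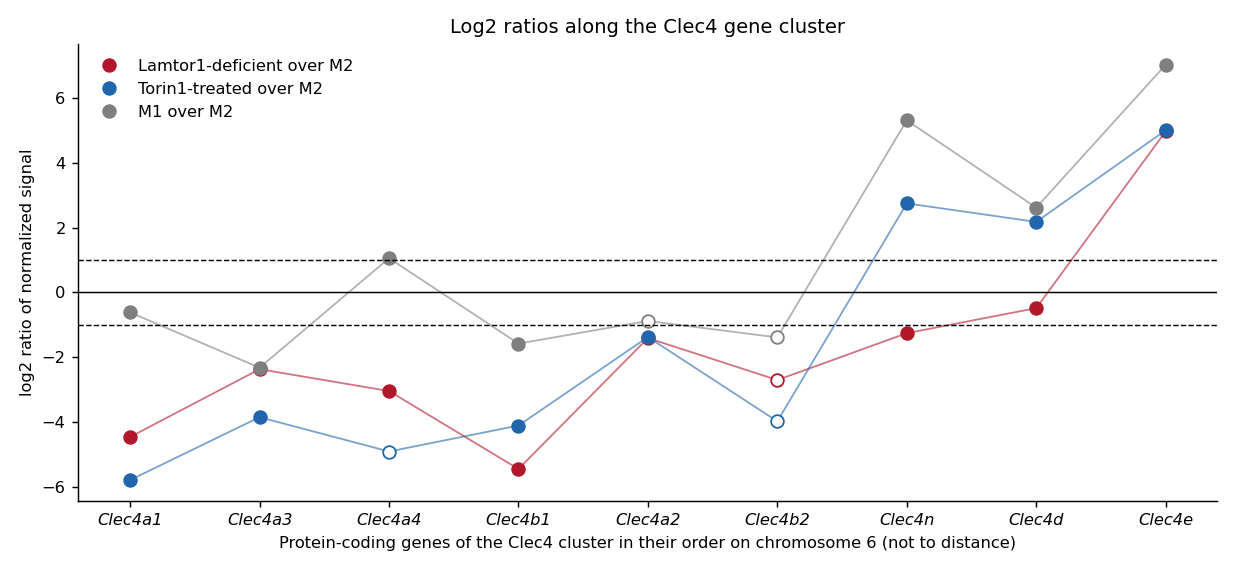
The 9 protein-coding genes of the cluster stand in their order along chromosome 6, not to distance, and the points give the log2 ratio of the normalized signal to M2 in the Lamtor1-deficient (red), Torin1-treated (blue) and M1 (grey) sample. Open circles mark ratios with an array not well above background, and dashed lines mark 2-fold. All treated values left of Clec4n lie below -1, and the Torin1 and M1 values of Clec4n, Clec4d and Clec4e lie above 2.

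A further 36 genes were listed as C-type lectin or lectin-like, with Clec16a among them by name only. Of the 36, 24 were well above background in the Lamtor1-deficient or the M2 sample. Of these, 8 were higher and 7 lower with Lamtor1 deficiency, with a median log2 ratio of 0.10, beside 10.4% and 10.5% of all genes. Clec1b counts as lower with its brightest probe, at -1.34, but its other probes had 0.60 and 0.91, so its direction was not settled. Among the higher ones, the scavenger receptor Colec12 had a log2 ratio of 2.61, and Clec1a was at least 10.2-fold, Ly75 at least 4.01-fold and the activation marker Cd69 at least 3.44-fold higher, which are bounds and have no order. Among the lower ones were Clec4b1, Clec4a1 and Cd72, which had -2.67 and -2.68 with its probes, and as bounds Cd209e, at least 2.06-fold lower, and Clec12a, at least 3.01-fold lower.

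After Torin1, 3 of 23 were higher and 8 lower, with a median of -0.29, beside 15% and 15.2% of all genes. Over all 36 genes, dim probes included, the count past 2-fold went from 17 to 11 with normexp and to 8 with probes well above background on both arrays for Lamtor1 deficiency, and from 14 to 6 and 5 for Torin1. Ly75, an endocytic receptor related to Mrc1, was at least 6.43-fold higher, Clec9a at least 3.92-fold higher, and Cd93 had a log2 ratio of 1.41. Cd72, an inhibitory receptor, had -6.07, and -6.21 with its other probe. In M1 over M2, 7 of 25 were higher and 11 lower, with a median of -0.39, beside 28.3% and 27.8% of all genes. Clec1b is again counted as lower with its brightest probe, at -1.64, while its other probes had 1.21 and 0.59. Cd69 was at least 252-fold higher in M1, and Olr1, the receptor for oxidized LDL, was at least 4.79-fold lower.

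Genes through which these receptors signal were counted in the same way. Of 24 listed, 23 had a signal on all 4 arrays. The kinase Syk was the gene without, so these counts leave it out. With Lamtor1 deficiency 1 of 22 above background was higher and 2 were lower, where 10.4% and 10.5% of all genes were. The median log2 ratio was -0.01. The higher one was Malt1, a partner of Card9 and Bcl10, at 1.15, and the lower ones were Nfatc2 at -1.96 and Prkcd, the kinase that activates Card9, at -1.26. Fcer1g, the Fc receptor γ chain that carries the signal of Clec4n, Clec4d and Clec4e, was at 0.20, and Card9 at -0.09. After Torin1, Traf6 at 1.72, Malt1 at 1.70 and the adaptor Hcst at 1.08 were higher and Pik3cd at -1.58 and Nfatc2 at -1.54 lower, of 23 genes with a median of -0.23, where 15% and 15.2% of all genes were. The other probe of Traf6 had 0.26 and that of Nfatc2 -0.49, so for both genes the call rests on the brighter of probes that disagree. In M1 over M2, 5 were higher and 4 lower, beside 28.3% and 27.8% of all genes, and a shift to the median put 13 of the 23 past 2-fold. The M1 values had Fcer1g at 1.94 among the higher and Itpr2 at -2.99 the lowest.

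Of 20 transcription regulators known to act on IL-4 or LPS genes, 18 had a signal, all of them on all arrays well above background. With Lamtor1 deficiency none was higher and 3 were lower, beside 10.4% and 10.5% of all genes. They were Mitf at -1.81, Cebpd at -1.19 and Irf5 at -1.01, and with a shift to the median the count of regulators past 2-fold was 2. After Torin1, Cebpb at 1.34 was higher, and Klf4 at -4.07, Cebpd at -2.09, Irf4 at -1.65 and Nfkb1 at -1.08 were among the 5 lower ones, beside 15% and 15.2% of all genes. In M1 over M2, Cebpb at 2.92, Klf4 at 2.70 and Kdm6b at 1.75 were higher and Pparg at -2.91 and Irf4 at -2.54 were the lowest of 6, beside 28.3% and 27.8% of all genes. Stat6, which mediates the response to IL-4, was at 0.06, 0.08 and 0.35 in the 3 comparisons with its brightest probe, while a second one had 1.38 in M1.

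**Figure D5:**
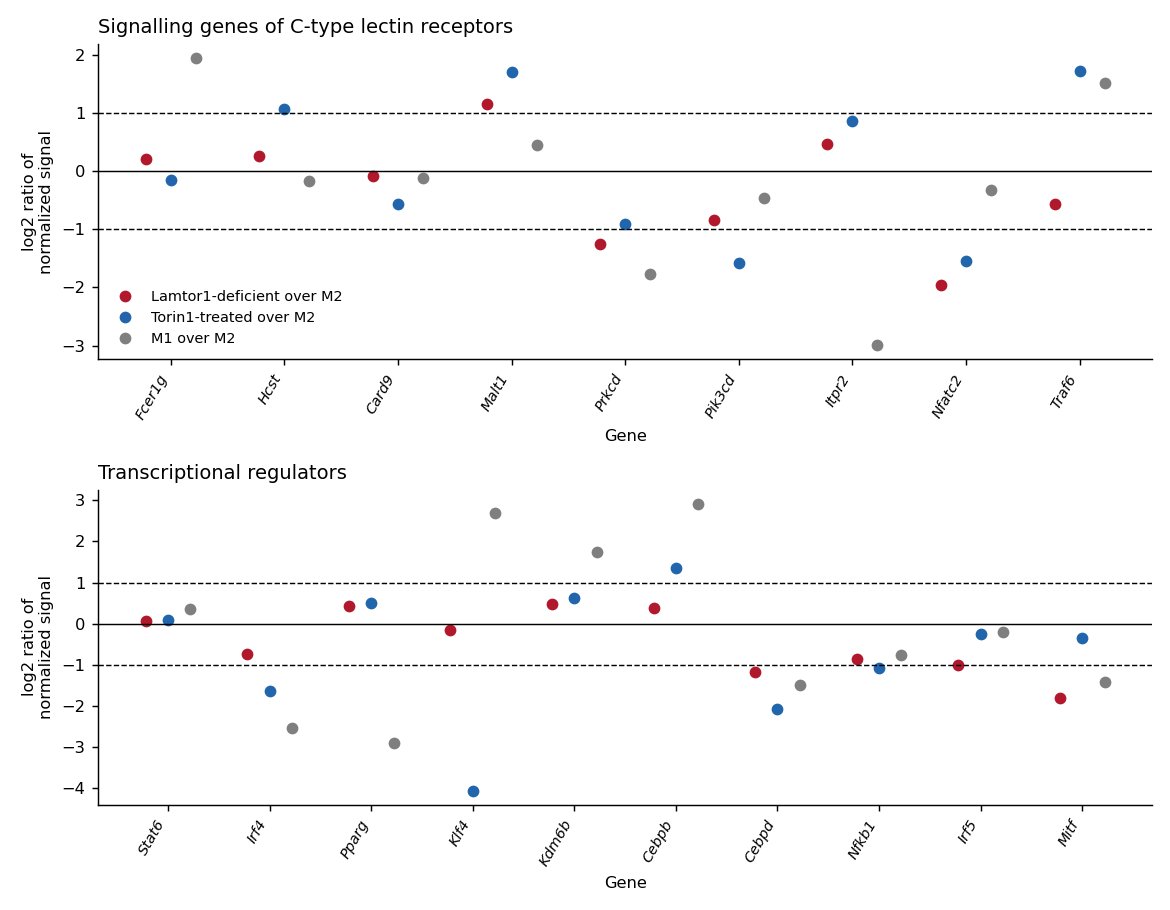
Points give the log2 ratio of the normalized signal to M2 of the signalling genes (upper panel) and regulators (lower panel) given with values in the text in the Lamtor1-deficient (red), Torin1-treated (blue) and M1 (grey) sample, with dashed lines at 2-fold. Fcer1g, Card9 and Stat6 lie between the dashed lines in both treated samples, and Klf4 after Torin1, at -4.07, is the lowest value shown for a regulator.

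The genes whose 3 log2 ratios to M2 lay nearest to those of Mrc1 and Clec4e were taken from 12833 genes well above background on the same arrays, by Euclidean distance. For Mrc1 they were Matk at 1.06, Flt1 at 1.36, Tfrc at 1.51, Itgax at 2.01 and Ptgs1 at 2.36. The nearest, Matk, had log2 ratios of -1.49, -2.39 and -7.15, beside -1.42, -2.64 and -8.18 for Mrc1. For Clec4e they were Cd200 at 1.14, C430002N11Rik at 2.53, Gadd45g and Pgm5 at 2.74 and Gdf15 at 2.83. Cd200, a surface protein that binds an inhibitory receptor of myeloid cells, had 4.75, 6.05 and 6.63, beside 4.97, 5.01 and 7.03 for Clec4e. Among the 8 members well above background on all 4 arrays, the nearest were Clec4n and Clec4d at 2.86. Clec10a and Clec4a3 were almost as near at 2.89, so these pairs are not ranked. The farthest were Mrc1 and Clec4e at 18.2. Clec4d and Clec4e, which lie side by side, were 7.56 apart.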

How the data were processed

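The authors deposited scanner files with spot intensities for 4 arrays, of which the processed signal is background-subtracted by Agilent Feature Extraction (10.7.3.1 in the file header, 10.5.1.1 in the submitters' processing notes) and not normalized between arrays. A deposited series table of the same intensities served as an alternative. The members and gene lists were chosen with earlier results of these data known.

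From these files, control spots and outlier spots (170 to 226 of 59305 per array) were left out and spots of a probe averaged. After a raw threshold of 1, signals were divided by the array's 75th percentile (287 to 595) and taken to log2, as in the study's methods. The brightest probe stood for a gene. Between 51.0% and 55.5% of probes were well above background, down to signals of 15.7 to 21.6, and 0 spots were saturated. A ratio with 1 array below background is a bound, written "at least", apart from the values of Clec4a2 in M1 under alternative processing. Counts, medians and ranks use the measured ratio of such genes, and a rank counts the gene itself. The arrays shared a slide and a scan. Technical SD came from probes spotted at least 8 times.

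The text names all members, the targeted gene, in each comparison at most the 4 highest and 4 lowest list genes past 2-fold by measured ratio, and the 5 nearest genes of Mrc1 and Clec4e. Other list genes that the text singles out, and Clec4a4, were chosen after their values were seen. Some listed genes are not reported here. Gene names and order came from RefSeq (GRCm38.p6), which held all 10 members and 19400 of 23197 genes. Probe coordinates are mm9, and the exon or UTR at a probe was not analysed here. Alternatives were another shift, quantile normalization, normexp with offset 50, filters on dim probes, a floor, outlier spots kept, the mean over probes, a 3-fold threshold and the series table. In simulated data for Lamtor1-deficient over M2, with 23197 genes, 200 of 200 planted genes at a log2 change of 2 were recovered. That change lies far past the 2-fold threshold, so this checks only the computing steps and not how reliable the 2-fold calls are. The software was Python 3.11.15 (pandas 2.3.3, NumPy 2.4.6) and R 4.3.3 (limma 3.58.1).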

Additional observations from a re-analysis of the deposited data

Results flagged for a closer look

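Clec4n moved in opposite directions under the treatments. Its log2 ratio to M2 was -1.26 in the Lamtor1-deficient and 2.75 in the Torin1-treated sample. Each value comes from 1 array, and the difference was not tested.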

How the results depend on the processing

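No paired analysis was possible because each condition had 1 array. The counts here are over all listed genes with a signal, dim probes included, so that Cd209a raises the members higher in M1 to 5. No value changed its direction past 2-fold under the 10 alternatives run for values. The members higher with Lamtor1 deficiency went from 2 to 1 with the percentile over probes well above background, with quantile normalization and with a 3-fold threshold, and the lower ones from 6 to 3 with the last. The members higher in M1 went to 3 with the median shift, quantile normalization and normexp. Mgl2 after Torin1 was at -1.03 with quantile normalization.

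The difference between the M2 lectins and Clec4d with Clec4e became -4.44 (Lamtor1-deficient), -6.96 (Torin1) and -8.38 (M1) with quantile normalization, and -6.65 (Torin1) and -7.91 (M1) with normexp. For Lamtor1 deficiency, the other listed C-type lectin or lectin-like genes past 2-fold went from 17 to 11 with normexp. They went to 8 with a filter on both arrays and to 11 at 3-fold. For Torin1 they went from 14 to 6 with normexp and 5 with that filter, and for M1 from 21 to 8 with that filter. The signalling genes went from 3 to 5 (percentile over probes well above background) and 1 (3-fold) for Lamtor1 deficiency, from 5 to 8 (median shift) and 2 (3-fold) for Torin1, and from 9 to 13 (median shift) and 5 (3-fold) for M1. The regulators went from 3 to 1 at 3-fold for Lamtor1 deficiency. The cause of these changes was not tested. The median shift moved every log2 ratio by 0.06 for Lamtor1 deficiency, -0.25 for Torin1 and -0.82 for M1.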

Other observations

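Other cell type markers were read beside the lectins. Of 10 fibroblast markers, 4 were higher with Lamtor1 deficiency (Thy1, Dcn, Pdgfra and Fbln1) and 1 was lower (Postn). After Torin1 0 were higher and 5 lower, and in M1 1 was higher and 8 were lower. Their summed normalized signal was 54.5 in M2, 62.5 in Lamtor1-deficient, 33.8 in Torin1-treated and 17.5 in M1 BMDMs. The 10 lymphocyte markers summed to 3.56, 3.91, 2.77 and 4.72 in the same order, and of 8 above background in Lamtor1-deficient or M2 BMDMs 4 were higher with Lamtor1 deficiency and 1 was lower. After Torin1 1 of 5 was higher and 2 were lower, and in M1 1 was higher and 1 lower. The shares of all genes higher and lower were 10.4% and 10.5% with Lamtor1 deficiency, 15% and 15.2% after Torin1, and 28.3% and 27.8% in M1. The markers' part in the lectin values was not tested.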
